A study of Saccharomyces cerevisiae with 20 samples.

Results

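The proteasome genes described here were 33 open reading frames (ORFs) of *Saccharomyces cerevisiae*, out of 5985 genes analysed and 6685 ORFs listed. They were chosen by their systematic names and not by any measured value, although earlier results of these data were known. They comprised the 14 genes of the 20S core particle (7 alpha and 7 beta subunits), 18 genes of the 19S regulatory particle (6 ATPases, 4 other subunits of the base and 8 subunits of the lid) and RPN4, the gene of their transcription factor. All 33 were listed in every file.

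The proteasome is the large protease that degrades proteins tagged with ubiquitin. The alpha rings of the 20S core form the gate, the beta rings carry the proteolytic sites, the ATPases of the 19S particle unfold the substrate, and the lid removes its ubiquitin chain. Rpn4 activates the subunit genes through a promoter element that most of them share, and is itself a short-lived substrate of the proteasome. Gcn5 is the histone acetyltransferase of the SAGA complex and acetylates lysines of the histone H3 tail, H3K18 among them. Acetylation of H4K16 (H4K16ac) in yeast is placed by other enzymes.

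Chromatin immunoprecipitation followed by hybridisation to tiling arrays (ChIP-chip) was carried out on cells at 5 points of stress and recovery, with antibodies against the myc tag on Gcn5, H3K18ac, H4K16ac and H3. State A was exponential growth in YPD medium, state B was 1 h after transfer to YPD with 1 M KCl, state C was growth adapted to KCl, state D was 1 h after return to YPD without KCl, and state E was growth after recovery. All cells were of one strain in which Gcn5 carried the myc tag, so that Gcn5 was read through its tag in every state. An untagged strain was not analysed here. The 4 antibodies and 5 states gave 20 profiles, 1 for each combination, each set against an input control. More than 1 culture was described, but cultures were not kept apart in the values, so no replicate error could be computed, no test was possible, and every difference below is a single difference without a replicate check.

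Each value was a ChIP signal on a log scale of unnamed base, in arbitrary units, and each ORF was cut into 20 bins, with 9 more on each side that reached to the midpoint of the intergenic region. The 9 before the ORF are called upstream and the 9 after it downstream. The level of a gene in a region was the mean of its bins, after the 5 states of an antibody had been brought to the same median over all bins. Levels are comparable between states for 1 antibody, not between antibodies. In place of a test, 2 descriptions were used, a difference over 0.1 in size and a state lying above or below all 4 other states. Each count of members is given beside the percentage of all 5985 genes that met the same description. By way of scale, a member's ORF level spanned a median of 0.14 over the 5 states for H3K18ac, 0.098 for H4K16ac, 0.092 for Gcn5 and 0.11 for H3.

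The methods named the same catalogue number for the H3K18ac and the H3 antibody. Across the 5985 genes the ORF levels of the H3K18ac and H3 profiles had Spearman rho between -0.11 and 0.041 in the 5 states, so these profiles did not follow each other. In each of the 20 files a single value recurred across unrelated genes, in 812 to 2760 bins of all genes and in 2 to 20 of the 1254 bins of the members, where no other value occurred in more than 20 bins. It was 0 in 2 of the files and another constant in the others, and its origin is not given in the sources used here, so a bin that holds it cannot be read as a measured level. Levels were averaged with these bins as deposited, which over the ORF were at most 2 bins of the members in any file. Leaving them out, in all 5 states of the antibody, changed some values described below by over 1.5 times or ended a call. The value without them is given beside many of these, but not all. Single members crossed 0.1 in either direction, so other counts below can differ slightly without these bins.

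Over the ORF, both acetylation marks were higher on the proteasome genes than on the median gene in every state. The median ORF level of H3K18ac was 0.61, 0.67, 0.51, 0.54 and 0.48 over the members in states A, B, C, D and E, where the median of all genes was 0.21, 0.25, 0.22, 0.23 and 0.24. The median ORF level of H4K16ac was 0.34, 0.30, 0.36, 0.33 and 0.32 over the members, where that of all genes stayed between 0.12 and 0.13. Taking the mean of the 5 states, 28 of 33 members lay above the median of all genes for H3K18ac and 26 of 33 for H4K16ac.

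Upstream of the ORF, H3K18ac was higher still and 30 of 33 members lay above the median of all genes. The median upstream level was 0.91, 0.83, 0.79, 0.83 and 0.80 in states A to E, and 0.52, 0.48, 0.51, 0.53 and 0.49 over all genes. H4K16ac upstream was above the median of all genes in 22 of 33 members. The H3 level of the ORFs was lower than on the median gene, with a median of 0.18 against 0.24 and 11 of 33 members above the all-gene median. Gcn5 over the ORF was above the all-gene median in 26 of 33 members, but the medians were close, at -0.032 over the members and -0.076 over all genes. Upstream, Gcn5 exceeded the all-gene median in 15 of 33 members, so that most proteasome promoters stood no higher than an average promoter.

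**Figure D1:**
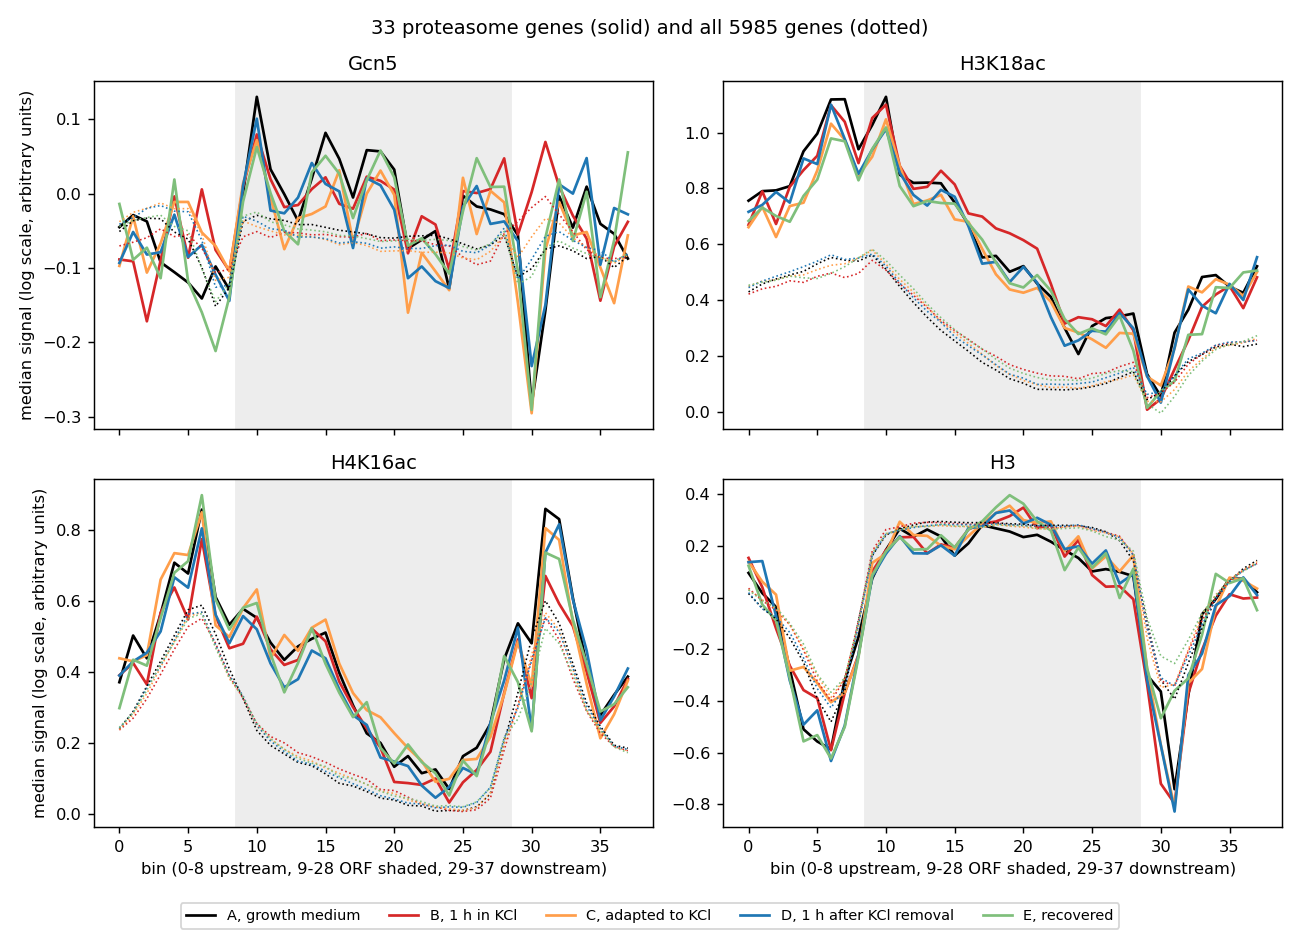
Median signal (log scale, arbitrary units) in each of the 38 bins from upstream through the ORF (shaded) to downstream, for the 33 proteasome genes (solid) and all 5985 genes (dotted), 1 line per state. In state A the H3K18ac median of the members reached 1.12 in bin 6 and 1.13 in bin 10, where all genes had 0.55 and 0.51.

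The plot of medians by bin shows how the marks ran along the genes. H3K18ac was highest on either side of the start of the ORF and declined towards its 3′ end, where the median of the members in bin 24 was 0.21 in state A. H4K16ac had a maximum in bin 6 upstream, at 0.86 in state A, and another beyond the end of the ORF in bin 31, also at 0.86. H3 had its minima at the same places, at -0.59 in bin 6 and -0.74 in bin 31. The Gcn5 profile was nearly flat, with a dip beyond the end of the ORF in bin 30 that was absent in state B, where the median was 0.0021, against -0.28 in state A.

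Part of the difference in level went with gene length. The 20S genes were all short, between 597 and 867 bases (lengths and gaps from the RefSeq annotation of assembly R64), and across the members the mean ORF level had a Spearman rho with length of -0.82 for H3K18ac and -0.74 for H4K16ac, where all 5985 genes gave -0.63 and -0.42. These are descriptions across genes, which are not independent replicates and share arrays. Within length classes the members were still higher. The 18 members under 1 kb had a median ORF H3K18ac level of 0.80, and the 2395 genes of that length 0.54. The 13 members of 1 to 2 kb had a median of 0.41, and the 2266 genes of that length 0.21. For H4K16ac the medians of the members in these length classes were 0.47 and 0.21, and those of all genes 0.30 and 0.13.

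The longest members did not share this. RPN1 (YHR027C) and RPN2 (YIL075C), the scaffold subunits of the base at 2982 and 2838 bases, had a median ORF H3K18ac level of -0.065, close to the -0.085 of the 798 genes of 2 to 3 kb, and a median ORF H4K16ac level of -0.29, below the -0.026 of those genes. RPN4 (YDL020C), at 1596 bases, also had low ORF acetylation, and the lowest mean ORF H4K16ac level of all members, -0.32.

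Among single members, PRE5 (YMR314W), an alpha subunit gene, had the highest ORF H3K18ac level, at 1.16, 1.19, 1.00, 1.13 and 1.11 in states A to E. PRE1 (YER012W), a beta subunit gene, had the highest upstream level, at 1.41, 1.36, 1.33, 1.47 and 1.34. Each ranked first or second among the 33 in every state. RPT2 (YDL007W), an ATPase gene with an upstream gap of 1222 bases, had the lowest upstream H3K18ac level, at -0.27, -0.40, -0.31, -0.42 and -0.32, and the lowest upstream H4K16ac level, between -0.79 and -0.63, with an upstream H3 level between -1.33 and -1.0. Its promoter was thus low for all 3 histone antibodies and in every state.

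**Figure D2:**
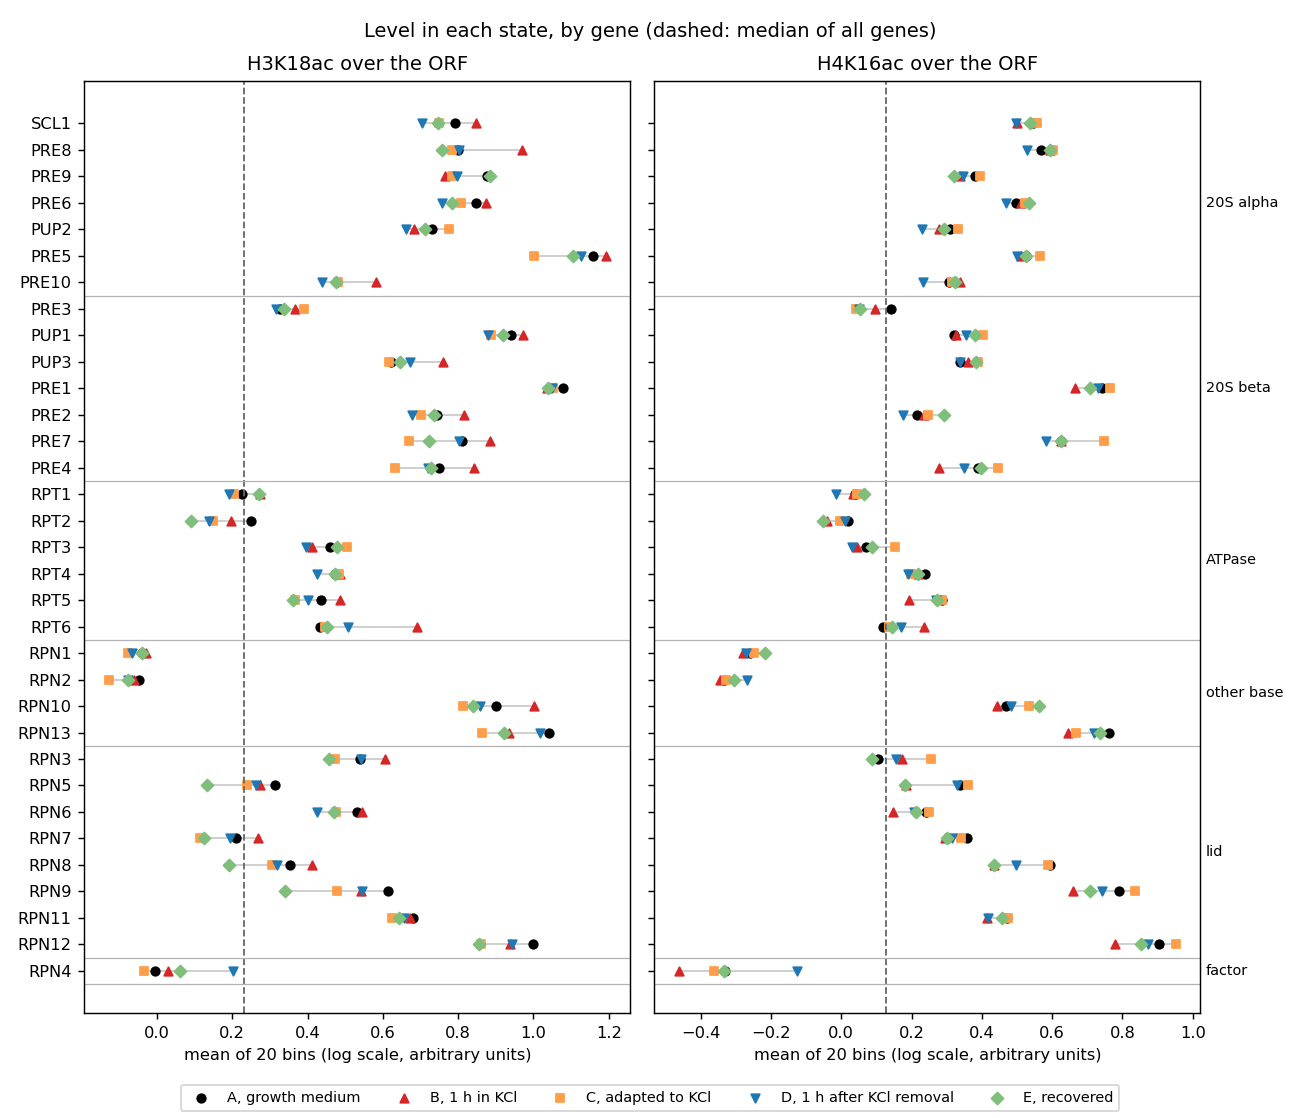
Level over the ORF (mean of 20 bins, log scale, arbitrary units) of each proteasome gene in states A to E, 1 row per gene grouped by role, for H3K18ac and H4K16ac, with the median of all genes as a dashed line. The levels of H3K18ac ran from a mean of -0.078 for RPN2 to 1.12 for PRE5, a far wider range than the median spread of 0.14 over the states of 1 gene.

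The first comparison asked what 1 h in KCl did to these genes, state B against state A. For H3K18ac, the members' median difference was above 0 within the ORFs and below 0 upstream, where all genes had nearly the same median. Over the ORF, state B stood above all 4 other states in 20 of 33 members, against 31.2% of all genes, and below all of them in 2, PRE9 (YGR135W) and PRE1, against 22.6%. The differences were small. The median of B minus A was 0.033 over the members and 0.014 over all genes, and 22 members were higher (54.9% of all genes). Of these 5 exceeded 0.1 (24.1%), and 2 members were lower by over 0.1 (16.7%). The shift was thus seen in the order of the 5 states more than in its size.

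The 20 members came from both particles. H3K18ac over the ORF was highest in state B in 10 of the 14 genes of the 20S core, 5 alpha and 5 beta, and in 10 of the 18 genes of the 19S particle. RPT6 (YGL048C), an ATPase gene, had the largest difference, with ORF levels of 0.43, 0.69, 0.45, 0.51 and 0.45 in states A to E. PRE8 (YML092C), an alpha subunit gene, had 0.80, 0.97, 0.78, 0.80 and 0.76. PUP3 (YER094C), a beta subunit gene, had 0.62, 0.76, 0.62, 0.67 and 0.65. In all 3 state B stood clear of the remaining states.

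PUP1 and PRE2, genes of catalytic beta subunits, followed the same order with smaller steps. PUP1 (YOR157C), which encodes the trypsin-like subunit, had 0.94, 0.97, 0.89, 0.88 and 0.92, and PRE2 (YPR103W), which encodes the chymotrypsin-like subunit, had 0.74, 0.81, 0.70, 0.68 and 0.74. PRE3 (YJL001W), which encodes the caspase-like subunit, was highest in state C instead, with 0.33, 0.37, 0.39, 0.32 and 0.34. PRE9, the alpha subunit gene that is dispensable for growth, differed from the others, with 0.88, 0.77, 0.78, 0.80 and 0.89 and its lowest value in state B. RPN13 (YLR421C), a ubiquitin receptor gene, had 0.93 in state B and 1.04 in state A, and its lowest value, 0.86, was in state C.

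The lists of genes that work with the proteasome lay on both sides of the 31.2% of all genes. State B was the highest for ORF H3K18ac in 3 of 17 genes of proteasome assembly and associated factors, in 8 of 17 genes of the ubiquitin and shuttle factors and in 1 of 10 chaperone genes. These lists were chosen with earlier results of the data known, and no test of the difference between the lists and the members was made.

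Upstream, H3K18ac was lower in state B than in state A in 24 of 33 members (60.4% of all genes), with a median of -0.055, and all genes had nearly the same median, -0.051. The order of the 5 states did not set state B low. State B was the lowest in 6 members (34.5% of all genes) and the highest in 9 (22.7%), while state A was the highest in 13 (21.3%). Upstream H3K18ac was lower than in state A by over 0.1 in 12 members (39.5% of all genes). It was higher by over 0.1 in 3 (22.8%), all of them beta subunit genes. PRE4 (YFR050C) was the extreme, with upstream levels of 0.0068, 0.66, 0.12, 0.41 and 0.51 in states A to E. A single bin weighed on it: bin 4 held the recurring value in state B, while it was -2.99 in state A. The difference was 0.33 in place of 0.66 without this bin, and 0.41 with the median of the 9 bins. The others were PRE7 (YBL041W), at 1.09 in state B and 0.90 in state A, and PUP3, at 0.71 in state B and 0.60 in state A. On the lower side stood PUP2 (YGR253C), an alpha subunit gene, at 0.69 in state B and 0.97 in state A, and PRE2, at 0.46 in state B and 0.73 in state A.

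For H4K16ac, by contrast, the proteasome genes were lower in state B in all 3 regions. Upstream, 26 of 33 members were lower than in state A (58.1% of all genes), the median difference was -0.077, against -0.022 over all genes, and 13 were lower by over 0.1 (24.9% of all genes) while none was higher by that much (14.2%). State B was below all 4 other states in 16 of 33 members, against 27.1% of all genes. The largest differences were those of PRE2, RPN9 and RPN2. PRE2 had upstream levels of 0.39, 0.0048, 0.21, 0.21 and 0.22, RPN9 (YDR427W), a lid gene, had 0.98, 0.63, 0.98, 0.87 and 0.86, and RPN2 had 0.88, 0.60, 0.59, 0.63 and 0.56. PRE2 and RPN9 had their minimum in state B, but the RPN2 difference of -0.28 rested on bins at the recurring value and was -0.091 without 2 of its 9 bins, and 12 members were then lower by over 0.1.

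The promoters of the 19S genes shared this most widely. The upstream H4K16ac level was lower in state B in 17 of 18 of them, including all 6 ATPase genes, whose median difference was -0.12, and all 4 other base genes, whose median was -0.14. Of the 14 genes of the 20S core 8 were lower and 6 higher. The highest differences were those of PRE5, PUP3, PRE1 and SCL1 (YGL011C), all 20S genes, and the first of them was 0.032. With the H3 level subtracted, the median over the members was -0.13, and that over all genes was lower as well, at -0.070.

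Over the ORF, the H4K16ac median of B minus A was -0.029 over the members and 0.019 over all genes. Of the members 7 were lower by over 0.1 (9.07% of all genes) and 1, RPT6, was higher by over 0.1 (18%), with 0.23 in state B and 0.12 in state A. State B was below all other states in 13 of 33 members, against 20% of all genes, and above them in 2, PRE10 (YOR362C) and RPT6, against 27.4%. The 13 included all 4 other base genes and 5 of the 8 lid genes, but 2 of the 14 genes of the 20S core.

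The lid genes showed the largest ORF differences. RPN8 (YOR261C) had ORF levels of 0.59, 0.43, 0.59, 0.50 and 0.43, RPN5 (YDL147W) had 0.34, 0.18, 0.36, 0.33 and 0.18, and RPN9 had 0.79, 0.66, 0.84, 0.74 and 0.71. State E lay as low as state B in RPN8 and RPN5, but not in RPN9. Of the 8 lid genes 7 were lower in state B (41.7% of all genes), with a median difference of -0.11, and RPN3 (YER021W) was higher, at 0.17 in state B and 0.10 in state A. RPN12 (YFR052W), with 0.90, 0.78, 0.95, 0.87 and 0.85, and RPN11 (YFR004W), the deubiquitinase gene, with 0.47, 0.41, 0.47, 0.42 and 0.46, also had their minimum in state B. H3 over the lid ORFs was lower in state B in 4 of 8 (39.2% of all genes), and after subtraction of H3 the lid median was -0.042, so that the size of the lid difference depended on the H3 profile.

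**Figure D3:**
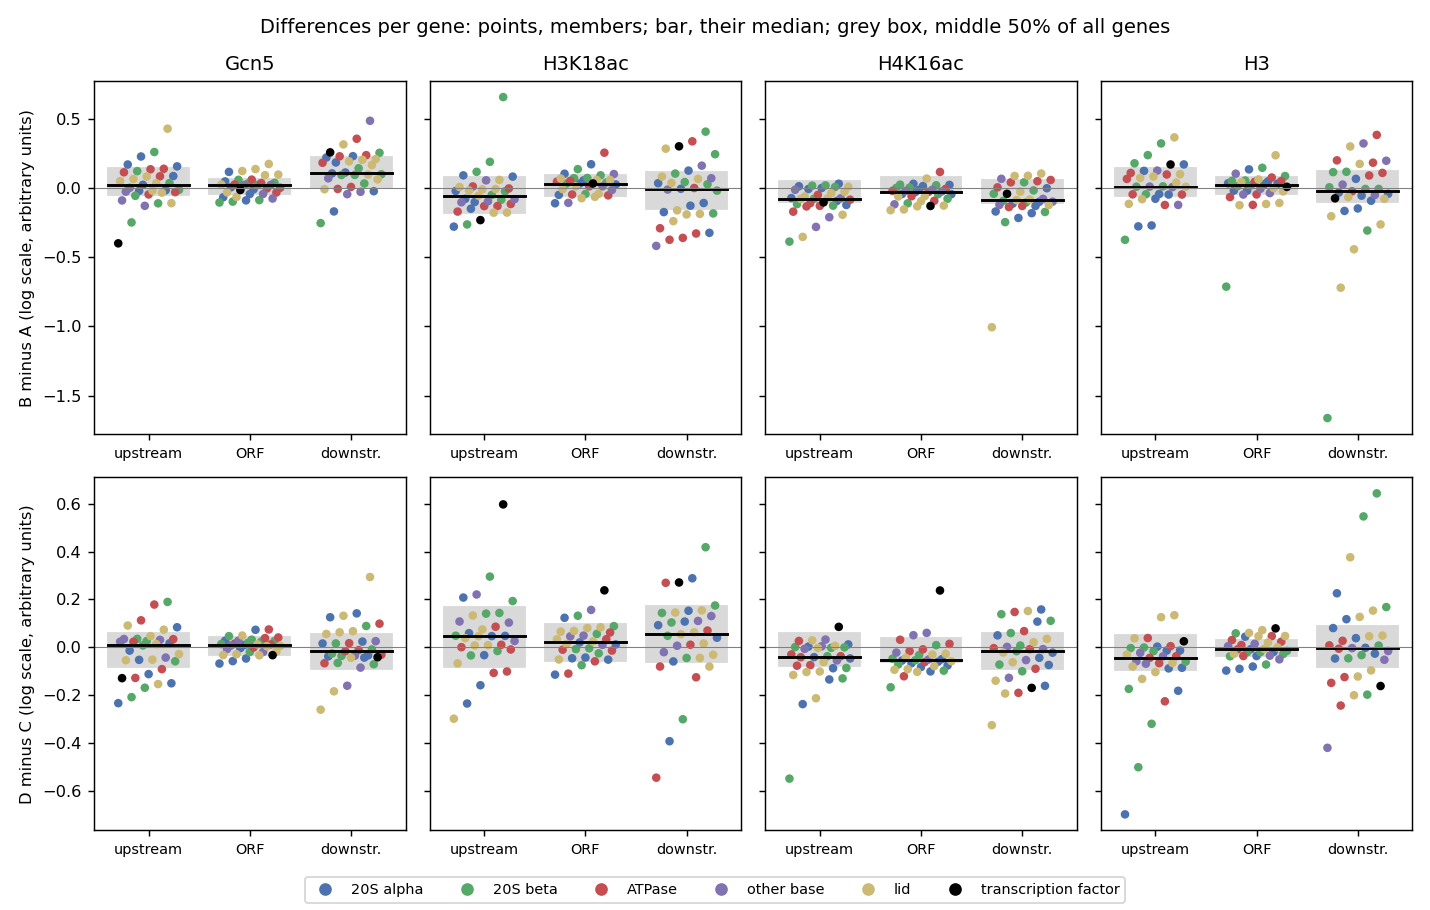
Differences B minus A (top) and D minus C (bottom) per gene (log scale, arbitrary units) for each antibody and region, with 1 point per proteasome gene coloured by role, a bar at their median and a grey box for the middle 50% of all genes. The H4K16ac medians of B minus A were -0.077 upstream, -0.029 over the ORF and -0.087 downstream, and RPN4 stands apart at -0.40 for Gcn5 upstream.

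Downstream of the ORF, the median H4K16ac difference was -0.087 over the members and 13 were lower by over 0.1 (27.6% of all genes), 1 higher (17.1%). State B was lowest in 14 of 33 (24.4%). RPN12 was the extreme, at 0.99, -0.020, 0.89, 0.57 and 0.65, and here too a single bin weighed: bin 30 read 0.69 in state B, against 3.88 in state A. The median of its 9 bins still differed by -0.66, and without 2 bins at the recurring value the mean differed by -1.11 in place of -1.01. Downstream H3K18ac was lower in state B by over 0.1 in 14 members (33.3% of all genes) and higher in 8 (27.2%), with a median of -0.0051. PUP3, among the 8, differed by 0.095 without bins at the recurring value. RPN1 had the lowest difference, with 0.37 in state B and 0.79 in state A.

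Gcn5 itself differed little over the ORFs. The ORF median of B minus A was 0.022 over the members, or 0.011 without bins at the recurring value, and changed sign with the normalization, with 4 members higher by over 0.1 (15.1% of all genes) and 1 lower (11%). Of those 4, the first 3 were lid genes, RPN8, RPN9 and RPN7 (YPR108W), and the last was PRE8. RPN8 had ORF Gcn5 levels of 0.0052, 0.18, 0.021, -0.0077 and 0.026, so that state B stood apart from 4 nearly equal states. RPN9 had 0.015, 0.15, -0.0042, 0.0083 and -0.10, and RPN7 had -0.045, 0.079, -0.083, -0.033 and -0.058. In each of these 3 ORFs Gcn5 was highest, and H4K16ac lower than in state A, after 1 h in KCl.

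Upstream, Gcn5 was higher by over 0.1 in 9 members (34.7% of all genes) and lower by over 0.1 in 5 (16.4%), with a median of 0.024 beside 0.046 over all genes. This median changed sign with the normalization and with the summary over bins, to -0.032 after quantile normalization. The highest differences were those of RPN3, with -0.14, 0.28, 0.096, -0.057 and -0.077 in states A to E, PRE1, with 0.10 in state B and -0.16 in state A, PRE5 and PUP2. Without bins at the recurring value the difference of PRE1 was 0.14 in place of 0.26 and that of PUP2 was 0.28 in place of 0.17. RPN3 thus crossed from below the all-gene median to well above it. On the lower side were RPN4, PRE4, RPN1 and PRE7.

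Downstream, Gcn5 was higher by over 0.1 in 18 of 33 members and lower in 2, but 52.0% and 9.29% of all genes did the same, and the median of 0.11 equalled that of all genes. Without bins at the recurring value the differences of PUP1 and RPN3 were under 0.1, at 0.065 and 0.087, and that of PRE2 rose to 0.12. State B was highest in 23 members (56.8% of all genes). RPN2, with -0.031, 0.46, 0.30, 0.14 and 0.24, RPT4 (YOR259C), with 0.46 in state B and 0.10 in state A, and RPN11, with 0.47 in state B and 0.15 in state A, had the largest differences. Without bins at the recurring value RPN2 had 0.060 in state A, and its difference was 0.35 in place of 0.49. The members' counts were thus close to those of all genes.

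RPN4 was the exception among the promoters. Its upstream Gcn5 level was 0.88, 0.48, 0.87, 0.74 and 0.76 in states A to E, which placed it above 99.1%, 95.2%, 99.3%, 98.7% and 98.9% of all genes. It was the only member above the 90th percentile of all genes in its mean upstream Gcn5 level. State B was the lowest of the 5, the difference to state A was -0.40, and 139 of the 5985 genes had a lower one.

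Along the promoter the Gcn5 signal of RPN4 was highest at the far end, in bin 1, with 0.98 in state B, against 1.66 in state A. State B was below state A in bins 0 to 7, and in bin 8, next to the ORF, the signal was near 0 in both, at -0.0034 in state B and -0.057 in state A. The gap to the upstream neighbour, YDL019C on the same strand, is 954 bases. The upstream H3 level of RPN4 was low in every state, at -1.21, -1.04, -0.98, -0.95 and -1.09, and highest in state D.

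**Figure D4:**
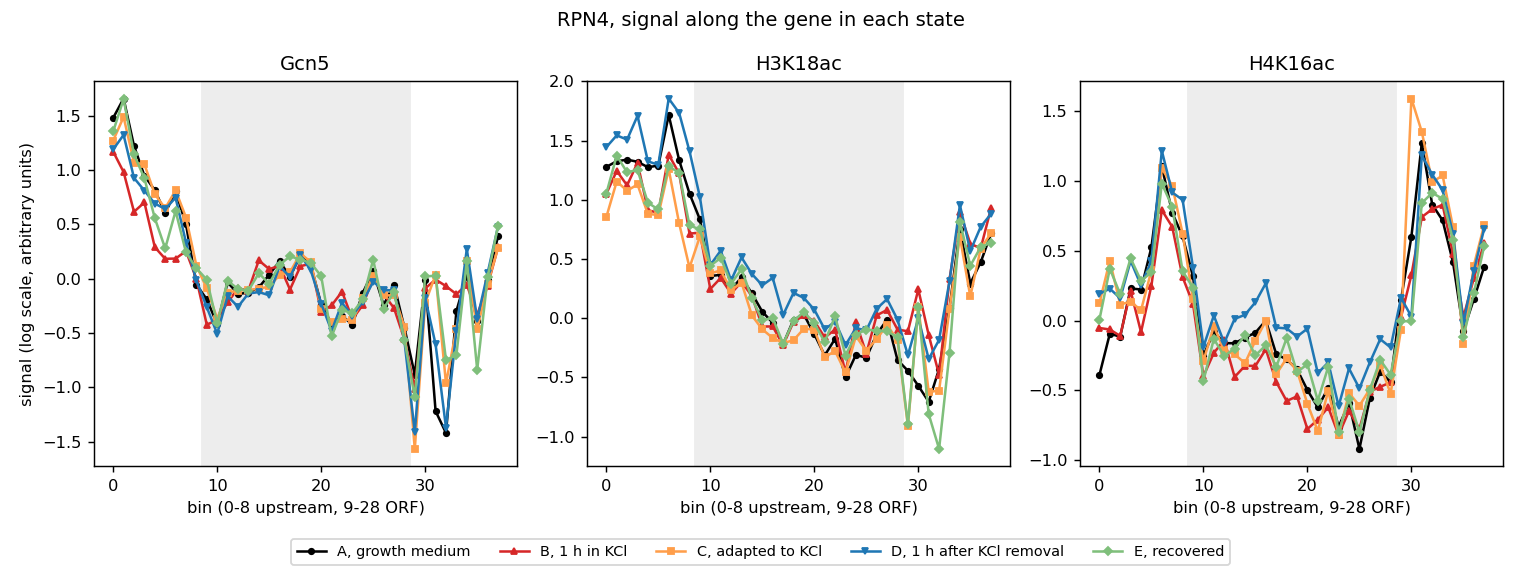
Signal along RPN4 (log scale, arbitrary units) in each bin from upstream through the ORF (shaded) to downstream, 1 line per state, for Gcn5, H3K18ac and H4K16ac. The state B line lies below state A for Gcn5 over bins 0 to 7, and the state D line lies above state C for H3K18ac over all 9 upstream and all 20 ORF bins.

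The chaperone genes, listed beside the proteasome genes because both are used in protein quality control, had a like pattern at the promoter. Their upstream Gcn5 medians were 0.69, 0.23, 0.46, 0.43 and 0.61 in states A to E. In state B 7 of 10 were lower than in state A by over 0.1 (16.4% of all genes) and 1 was higher (34.7%). The list holds SSA1 with SSA2 and HSP82 with HSC82, near-identical copies whose probes cannot always be told apart. Of the 17 assembly genes 1 was lower by over 0.1 (16.4% of all genes) and 5 were higher (34.7%).

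Adaptation to KCl, state C, was compared with the same state A, which the comparisons of states B and E with state A share. Over the ORF, H4K16ac was highest in state C in 17 of 33 members, against 22.3% of all genes, among them 10 of the 14 genes of the 20S core and 6 of the 8 lid genes. The median of C minus A was only 0.019, and 2 members exceeded 0.1 upward (18.2%) and none downward (7.47%). RPN3, with 0.26 in state C and 0.10 in state A, and PRE7, with 0.75 in state C and 0.62 in state A, had the largest differences. The sign of this median changed without the common median, so the order of the states is again clearer than its size.

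H3 upstream was also highest in state C, in 15 of 33 members against 15.2% of all genes, including 8 of the 14 genes of the 20S core. It was higher than in state A by over 0.1 in 14 members (31.1% of all genes) and lower in 2 (18.1%). PUP2, among the 14, differed by 0.013 without bins at the recurring value. PRE2 had -1.56, -1.32, -1.09, -1.59 and -1.56 in states A to E, PRE4 had -0.71, -0.38, -0.22, -0.54 and -0.50, and RPN12 had -0.48, -0.11, -0.12, -0.20 and -0.21. PRE2 returned to its first level in state D, while RPN12 did not. The PRE4 levels rested largely on bins 3 to 5. Bin 4 read -2.73, 0.093 and -1.26 in states A, C and D, and bin 5 read -2.17, 0.41 and -0.92. Whether PRE4 returned thus cannot be read from its mean. Upstream H3K18ac was lower in state C than in state A by over 0.1 in 15 members (32.5%) and higher in 1 (19.5%), PRE4, whose difference was 0.079 without bin 4.

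The second comparison asked what removal of KCl did after 1 h, state D against state C. H4K16ac over the ORF was lower in state D in 27 of 33 members, against 53.5% of all genes, including all 7 alpha genes, 6 of 7 beta genes and all 8 lid genes. The median difference was -0.054 over the members and -0.0058 over all genes. It exceeded 0.1 downward in 4 members (15.3%) and upward in 1 (6.28%), so most of the differences were small and of one direction.

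PRE7, a beta subunit gene, had the largest, with 0.62, 0.63, 0.75, 0.58 and 0.63 in states A to E, and here state C, not state D, stood apart. RPT3 (YDR394W), an ATPase gene, had 0.031 in state D and 0.15 in state C, and RPN3 had 0.15 in state D and 0.26 in state C. State D was the lowest of the 5 in 12 members (19.1% of all genes), 9 of them among the 14 genes of the 20S core, and in 7 members once H3 was subtracted.

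Over the same ORFs H3K18ac was lowest in state D in 11 members (17.8% of all genes), 7 of them 20S genes, and highest in state D in 1 member, RPN4 (20.9%). With H3 subtracted the count of lowest values was 7. The median of D minus C was 0.021, with 4 members higher by over 0.1 (23.8%) and 2 lower (17.3%). Upstream H3K18ac was higher by over 0.1 in 10 members (37.1%; 8 without bins at the recurring value) and lower in 5 (22.3%), with a median of 0.047 beside 0.042 over all genes. RPN5, a lid gene, had the lowest difference, with upstream levels of 0.40, 0.34, 0.44, 0.14 and 0.13, and remained low in state E.

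H3 upstream was lower in state D than in state C in 26 of 33 members, against 57.1% of all genes, and in 13 of the 14 genes of the 20S core. PUP2 was the extreme, with -0.91, -0.99, -0.81, -1.50 and -1.03 in states A to E, followed by PRE2, whose values are given above. Upstream H3 was lower by over 0.1 in 8 members (23.8%) and higher in 2 (14.7%). State D was the lowest of the 5 in 5 members (19.8% of all genes), while state C was the highest in 15 (15.2%). The median of D minus C was -0.044, and it changed its sign with state E in place of state C. The difference thus went with a high state C more than with a low state D. Upstream H4K16ac was lower by over 0.1 in 8 members (20.7%) and higher in none (14.3%). PRE4 had the lowest upstream H4K16ac difference, with 0.19 in state D and 0.74 in state C. This difference of -0.55 rested largely on bins 4 and 5 and was -0.28 without bin 4, which held the recurring value in state E, and -0.32 with the median of the 9 bins. Gcn5 over the ORF did not differ by over 0.1 in any member (5.91% of all genes were higher by that much and 6.28% lower), and upstream it was higher in 3 (14.8%) and lower in 8 (20.6%), or 4 and 6 without bins at the recurring value.

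RPN4 again stood apart from the subunit genes, by the size of its H3K18ac and ORF H4K16ac differences. The direction of the latter was not its own: ORF H4K16ac was higher in state D in 6 of the 33 members, RPN4 among them. Its upstream H3K18ac level was 1.33, 1.10, 0.94, 1.54 and 1.12 in states A to E, with a difference of 0.60 between state D and state C that 111 of the 5985 genes exceeded. Upstream H3K18ac was higher in state D in 23 of the 33 members, RPN4 among them, with a median of 0.047. State D was the highest of the 5 and above 98.2% of all genes. Over its ORF, H3K18ac was -0.0045, 0.029, -0.035, 0.20 and 0.062, and state D was again the highest. ORF H4K16ac was -0.33, -0.46, -0.36, -0.13 and -0.33, with a difference of 0.24 between state D and state C that 38 genes exceeded.

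Both marks were therefore highest over RPN4 1 h after KCl was removed, while ORF H4K16ac of 27 subunit genes was lower than in state C. Gcn5 at the RPN4 promoter did not move in the same direction, with 0.74 in state D and 0.87 in state C. ORF H3 of RPN4 was also higher in state D than in state C, by 0.079, and after subtraction of H3 the ORF differences were 0.16 for each mark. Upstream, H3K18ac with H3 subtracted differed by 0.57 between state D and state C, but the highest of the 5 states was then state A, at 2.54, with 2.49 in state D. The chaperone genes had the same direction. Their upstream H3K18ac was higher in state D by over 0.1 in 7 of 10 (37.1% of all genes) and lower in none (22.3%). Upstream H4K16ac was higher in 6 (14.3%) and lower in none (20.7%).

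Recovery was compared as state E against state A. Upstream H3K18ac was lower in state E than in state A in 29 of 33 members, against 62.5% of all genes. It was lower by over 0.1 in 18 (30.8%) and higher by over 0.1 in 1 (10.7%). The median difference was -0.11, against -0.037 over all genes. With H3 subtracted the medians were closer, at -0.12 over the members and -0.089 over all genes. State A was highest in 13 members (21.3%), state E was lowest in 12 (19.6%), and state E was highest in none (11.5%). RPN9, with 0.93, 0.75, 0.74, 0.82 and 0.55 in states A to E, and RPN1, with 1.08, 0.98, 0.84, 0.95 and 0.79, had the largest differences. The member that was higher was PRE4, with 0.51 in state E and 0.0068 in state A, where the state A value rested on bin 4 and the difference was 0.17 without it.

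Over the ORF, H3K18ac in state E was lower than in state A by over 0.1 in 6 members (8.44% of all genes) and higher in none (12.6%). RPN9 had 0.34 in state E and 0.61 in state A, RPN5 had 0.13 in state E and 0.31 in state A, and RPN8 had 0.19 in state E and 0.35 in state A. These 3 lid genes also had the lowest ORF H4K16ac differences for the same states, together with PRE3. H3 over the RPN9 ORF was -0.094 in state E and -0.33 in state A.

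PRE3 differed from every other member in H3. Its ORF H3 level was 0.21 in state A, and -0.50, -0.60, -0.54 and -0.53 in states B, C, D and E. Downstream the levels were 0.32 in state A, and -1.34, -1.68, -1.03 and -1.66 in states B to E. State A alone was high in both regions, and no return was seen in state E. The remaining states were close to each other over the ORF but not downstream.

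**Figure D5:**
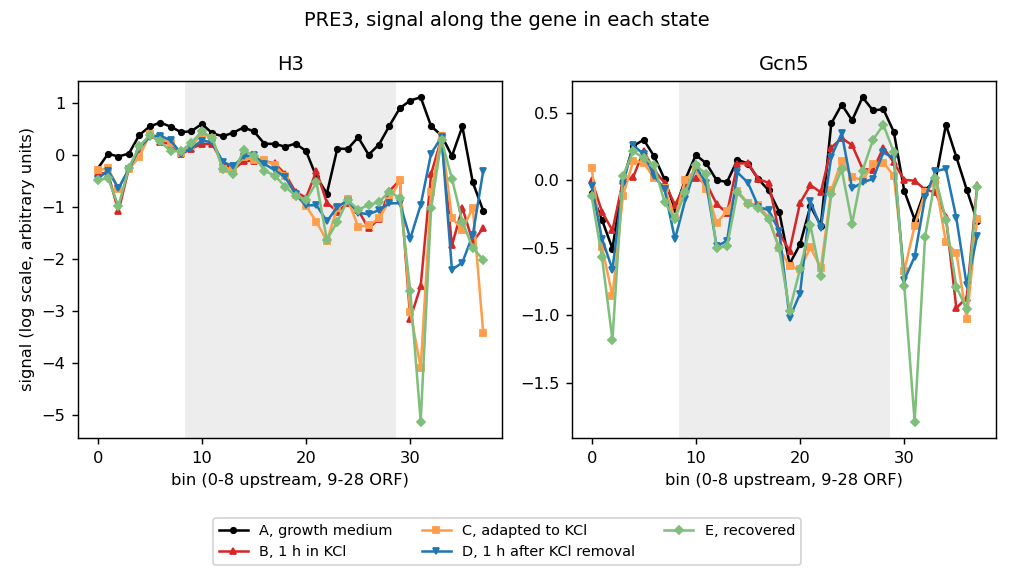
Signal along PRE3 (log scale, arbitrary units) for H3 and Gcn5 in each bin from upstream through the ORF (shaded) to downstream, 1 line per state. The H3 line of state A lies above the other states except in bins 21 and 37, bin 33 held the recurring value of each file, and in bin 31 state A read 1.10 where state E read -5.14.

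The 3′ side of PRE3 faces a centromere: its downstream neighbour, YJR001W, lies 875 bases away on the other arm of the chromosome. At the 30 other ORFs that are the first of their chromosome arm, the median H3 level of the binned side facing the centromere was 0.080 in state A, and -0.85, -0.60, -0.84 and -0.73 in states B, C, D and E. State A was the highest of the 5 at 29 of the 30. The H3 values of PRE3 thus followed those of other regions beside a centromere, in the same state A profile. Whether the state A array or the cells account for this cannot be told apart with 1 profile.

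Gcn5 over PRE3 was also highest in state A, with ORF levels of 0.086, -0.012, -0.19, -0.17 and -0.22 in states A to E. Its ORF H3K18ac level, given above, stayed between 0.32 and 0.39. Values of PRE3 with H3 subtracted carry its H3 difference. Leaving PRE3 out gave medians close to those above, and of the Gcn5 and acetylation medians over the members only that of upstream Gcn5 for D minus C changed its sign, at -0.0024 in place of 0.0085 (0.014 without bins at the recurring value).

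Neighbouring genes limit what some regions can show. Of the 33 members 21 are transcribed away from their upstream neighbour, so that the intergenic region upstream holds 2 promoters, although only the side nearer to the member, up to the midpoint, was binned. The upstream gaps were 219 to 1822 bases and the downstream gaps 64 to 945, with 8 of the downstream gaps under 200. PRE4 and RPN12 lie on either side of the same gene, YFR051C, and RPT4 and RPN8 on either side of YOR260W, so that these pairs are not independent in position. RPN10 (YHR200W) with 64 bases and RPN9 with 67 had the shortest downstream gaps, and their downstream bins cover few bases each.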

How the data were processed

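Immunoprecipitated DNA for Gcn5-myc, H3K18ac, H4K16ac and H3 and input DNA from 5 states were hybridised to Affymetrix S. cerevisiae Tiling 1.0R arrays. The deposited values are scores, ChIP signals against input on a log scale of unnamed base. The authors made them with Affymetrix Tiling Analysis Software (version not given in the sources used here) and averaged them into 38 bins per ORF. The methods state that the 5 states were set to one median. Over the genes analysed the deposited medians still differed, from -0.0902 to -0.0543 for Gcn5 and 0.268 to 0.301 for H3K18ac. For H4K16ac they ran from 0.194 to 0.221 and for H3 from 0.11 to 0.145. Genome build and annotation are not given in the sources used here. Depth is not defined for arrays, and their number, 1 profile for each antibody and state, limits the precision.

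Of the 6685 ORFs listed, 6 had no values and 1 held values over 20 in size. These, and ORFs that RefSeq (assembly R64) does not list as protein-coding genes, were left out, which left 5985. The 5 states of an antibody were set to one median over these genes, bins were averaged per region, and states were subtracted. In each file 1 value recurred in many bins, and these bins were kept as deposited, or left out as an alternative. No test was run. Alternatives were the values as deposited, quantile normalization, fewer bins, H3 subtraction, other reference states and other summaries. The calculations were tested on simulated data, with 200 of 5985 genes shifted. RPN4, PRE3, PUP1, PRE2 and up to 4 members with the highest and 4 with the lowest difference in each comparison are named; others, such as PRE9, RPN13, PRE5, PRE1, RPT2, RPN1, RPN2, RPN11 and RPN12, were also named elsewhere for their level or order of states, after their values were seen. The members and lists were chosen with earlier results of these data known. Values were computed in Python 3.11.15 with pandas 2.3.3, numpy 2.4.6 and scipy 1.17.1, and plots drawn with matplotlib 3.10.9.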

Additional observations from a re-analysis of the deposited data

How the results depend on the processing

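No paired analysis was possible because each antibody and state has 1 profile, with no replicate numbers. Of the recomputed medians and counts that answer a comparison, 178 moved by less than the spread of the members' median over the other 4 states, 14 moved further and 15 changed direction. The median of B minus A for upstream Gcn5, 0.024, was -0.0063 with the values as deposited, -0.0322 after quantile normalization, 0.0067 with narrower bins, -0.0005 with H3 subtracted, -0.0226 relative to the median of all genes and -0.0046 with the median of the bins. That for ORF Gcn5, 0.022, was -0.0080 as deposited, -0.0151 after quantile normalization, -0.0093 with narrower bins, 0.0024 without members with a close neighbour, -0.0169 with H3 subtracted and -0.0003 with the median of the bins. That for ORF H3, 0.019, was 0.0018 as deposited, 0.0145 after quantile normalization, -0.0049 with the mean over members, -0.0054 without members with a close neighbour, -0.0046 against the mean of states A and E, -0.0058 relative to all genes and 0.0234 without PRE3. That for H4K16ac was -0.1250 upstream and -0.0465 over the ORF with H3 subtracted, and -0.0480 over the ORF relative to all genes. For D minus C, H3 subtraction gave 0.0674 for upstream Gcn5 and 0.0141 for upstream H4K16ac, and state E in place of state C gave 0.0146 for upstream H3, -0.0188 for ORF Gcn5 and -0.0260 for ORF H4K16ac. For C minus A, ORF H4K16ac was -0.0068 as deposited and -0.0085 with H3 subtracted, and for E minus A ORF H3 was -0.0073 as deposited. State D was lowest in 7 members for ORF H3K18ac and in 7 for ORF H4K16ac with H3 subtracted. The cause was not tested. State B was highest for ORF H3K18ac in 16 to 22 members, and lowest for H4K16ac in 11 to 16 over the ORF and in 13 to 17 upstream, under the alternatives run. Leaving out the bins at the value that recurs in each file moved none of these medians or counts beyond those limits. It moved the upstream differences of PRE4 for H3K18ac (B minus A) to 0.33 and for H4K16ac (D minus C) to -0.28, and that of RPN2 for H4K16ac (B minus A) to -0.091. That alternative, the median of the bins, the values without PRE3, and the counts of states under other normalizations were chosen after seeing the data. No upstream gap was under 200 bases. Signal over background could not be assessed, and a difference under the unknown spread between cultures cannot be told from it.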
